A study of Mus musculus with 2 samples.

Results

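The core planar cell polarity genes were described here as 10 listed genes: Celsr1, Celsr2, Vangl1, Vangl2, Prickle1, Prickle2, Prickle3, Ankrd6, Dvl2 and Scrib. They were chosen by symbol, and all 10 were found among the 17758 genes of the single-cell table and among the 16906 genes of the bulk table. The bulk sample was PDGFRA+ cells sorted from the peripheral lung of Pdgfra-H2BGFP mice, whose Pdgfra locus drives a histone-bound green fluorescent protein. The single-cell sample was a 10x 3′ v3 library of sorted peripheral lung cells from wild-type mice. Both were taken at postnatal day 3 as control lungs, with 1 sample per group, and the sort gates and any pooling of animals are not stated. No test between samples was therefore possible, and intervals cover counting error only.

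Planar cell polarity is the alignment of cells within the plane of a tissue. In flies and vertebrates its core proteins gather in opposite complexes at cell borders. Frizzled receptors with Dishevelled lie on one face and Vangl with Prickle on the other, and Celsr (Flamingo) cadherins bridge the border. In mouse lung the system is known from mutants of Celsr1, Vangl2 and Scrib, whose airways branch abnormally, and from the orientation of airway cilia.

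The single-cell table held 11306 cells, of which 10199 were kept, with a median of 2050 detected genes in kept cells. Its values are depth-corrected unique molecular identifiers (UMIs, each standing for 1 captured RNA molecule before correction). Classes carry the suffix "-like" because their names rest on marker genes alone. There were 464 epithelial-like, 1028 endothelial-like, 2046 mesenchymal-like and 6484 immune-like cells, 41 mesothelial-like cells, and 136 cells in 1 cluster that stayed unnamed. Levels are given in CPM: the UMIs of a gene summed over a class, for every 1000000 UMIs in that class. The share of cells with a UMI carries an exact Clopper-Pearson 95% interval. The bulk table held 171910584 reads.

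Members were sparse in single cells. A UMI of at least 1 member was found in 32.4% of kept cells (31.5% to 33.4%). That share was 76.9% (70.4% to 82.6%) in aerocyte-like cells, which carry markers of the gas-exchange capillary type, and 17.6% (16.5% to 18.8%) in myeloid-like cells. The median of detected genes was 1902 in aerocyte-like and 1968 in myeloid-like cells, so the class with most members detected was not the deeper of these. Of the aerocyte-like cells 44.1% held UMIs of 2 or more members, against 27.1% of general capillary-like and 1.91% of myeloid-like cells.

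**Figure D1:**
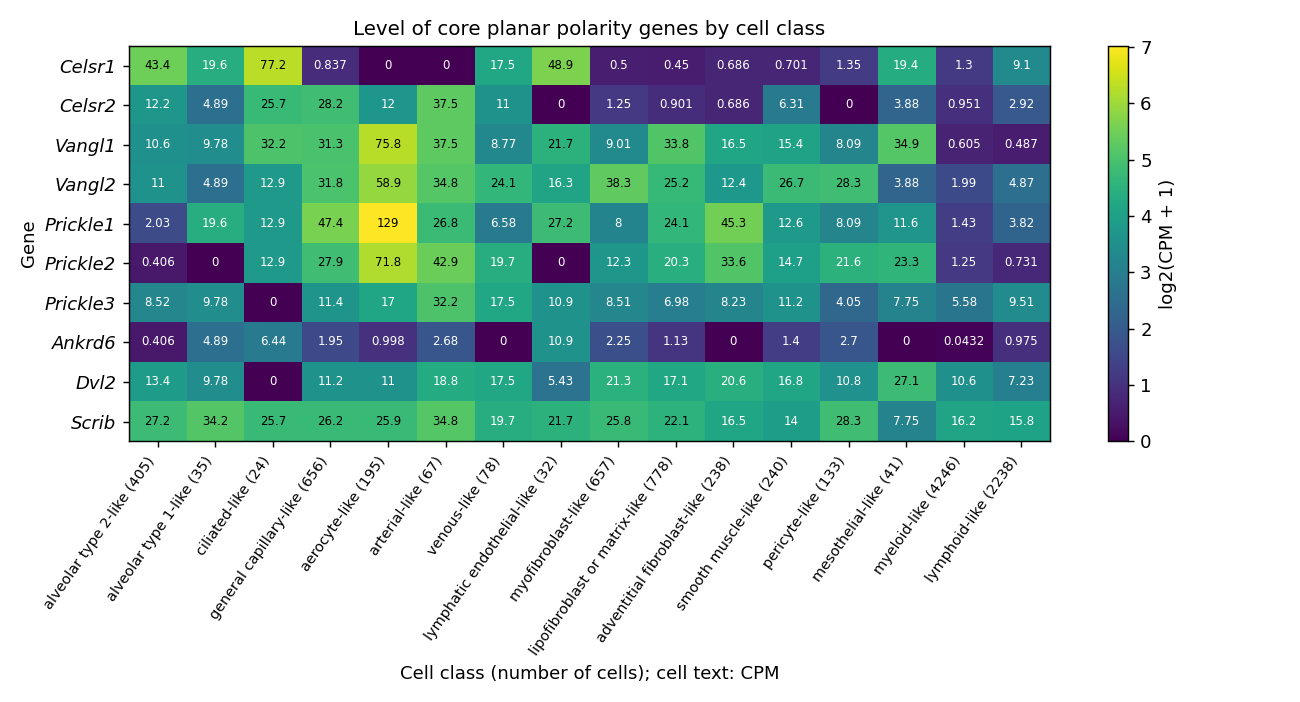
Level of each gene (rows, ordered by role) in each named cell class (columns, with the number of cells). Colour is log2(CPM + 1) and the printed number is the CPM. Vangl1, Vangl2, Prickle1 and Prickle2 reach their highest level in the aerocyte-like column, Celsr1 has 0 UMIs there, and Scrib is spread over all columns.

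Vangl2, Prickle1 and Prickle2 shared the class of their highest CPM, the aerocyte-like cells, and their promoter windows are shown for that reason. The windows are from RefSeq (GRCm38.p6), which held 1 or more windows for 7 of the 10 members. Each runs from 250 bases before to 50 bases after the annotated start, 5′ to 3′ on the gene's own strand, and capitals mark the GC box GGGCGG or its reverse complement. For genes with several starts the most upstream one was taken. The windows lie at chr1:172027246-172027545 for Vangl2, chr15:93595853-93596152 for Prickle1 and chr6:92706135-92706434 for Prickle2, each on the minus strand.
Vangl2: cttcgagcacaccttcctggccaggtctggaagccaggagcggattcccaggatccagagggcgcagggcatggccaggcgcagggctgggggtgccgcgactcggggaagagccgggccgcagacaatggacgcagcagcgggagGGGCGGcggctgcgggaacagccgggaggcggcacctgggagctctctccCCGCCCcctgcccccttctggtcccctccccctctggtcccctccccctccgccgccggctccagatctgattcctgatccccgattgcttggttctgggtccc
Prickle1: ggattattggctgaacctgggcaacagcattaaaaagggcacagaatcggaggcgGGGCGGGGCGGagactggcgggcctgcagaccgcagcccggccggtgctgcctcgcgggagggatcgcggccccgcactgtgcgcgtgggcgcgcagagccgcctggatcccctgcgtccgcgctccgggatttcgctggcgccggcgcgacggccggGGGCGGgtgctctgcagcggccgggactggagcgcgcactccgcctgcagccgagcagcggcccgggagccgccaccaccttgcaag
Prickle2: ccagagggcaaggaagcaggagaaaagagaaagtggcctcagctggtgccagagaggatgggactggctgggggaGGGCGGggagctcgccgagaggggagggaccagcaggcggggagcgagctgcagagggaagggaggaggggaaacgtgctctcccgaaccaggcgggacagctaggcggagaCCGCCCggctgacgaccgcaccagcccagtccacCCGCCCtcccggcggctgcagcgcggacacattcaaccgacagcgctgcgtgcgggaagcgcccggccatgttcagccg
GC box matches numbered 2 in the Vangl2 window and 3 in each Prickle window, of which 2 in Prickle1 overlap by 1 base, while 35.7% of all 32851 windows held at least 1. The windows held 21, 39 and 25 CpG sites in the same order, and the median of all windows was 7. The most upstream windows of Celsr2, Ankrd6, Dvl2 and Prickle3 held 40, 36, 20 and 17. Counts above the median were thus not particular to the genes shown. The later Prickle2 windows held 4, 5 and 7. None of the 3 windows shown held TATAAA on either strand, a string found in 13.6% of all windows. CCAAT, found in 37.4%, occurred among the windows shown in that of Prickle1 only. These are matches of letters and not evidence of binding.

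The Celsr genes encode large adhesion cadherins with a G protein-coupled receptor core, and they differed in the classes where they were highest. Celsr1 (ENSMUSG00000016028.10, mm10 chromosome 15, 85898929 to 86033777) had its highest lineage level in the epithelium. The level was 43.6 CPM in epithelial-like cells and 3.28 in all other cells, a log2 ratio of 3.38, with 1 CPM added to both sides here and in every log2 ratio below. Alveolar type 2-like cells held 107 of its 300 UMIs, at 43.4 CPM and in 24.2% of cells (20.1% to 28.7%). Ciliated-like cells had 77.2 CPM, in 11 of 24 cells (Celsr2 had 25.7 CPM there, in 4), and alveolar type 1-like cells 19.6 CPM, from 4 UMIs in 35 cells. The leading genes of the ciliated-like cluster included Cyp2f2, a secretory airway marker, beside the ciliated markers Dynlrb2 and Tmem212. It may thus hold other airway cells as well.

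Outside the epithelium, Celsr1 was present in lymphatic endothelial-like cells at 48.9 CPM (28.1% of 32 cells, 13.7% to 46.7%), and in venous-like cells at 17.5 CPM (10.3% of 78 cells, 4.53% to 19.2%), where Celsr2 had 10.96 CPM (6.41%, 2.11% to 14.3%). In mice Celsr1 and Vangl2 are known for a part in lymphatic valve formation. The blood capillary and arterial classes had little or none of it. For a share of 0 the limit is set at 3 cells of the class. Aerocyte-like cells had 0 of 195 cells, which by that limit allows a share of up to 1.54%, with an exact upper bound of 1.87%. Arterial-like cells had 0 of 67, a limit of 4.48% and an exact bound of 5.36%, and general capillary-like cells had 3 of 656. Mesenchymal-like cells had 0.580 CPM, in 0.342% of cells (0.138% to 0.704%). Against that low share, median detected genes were 2567 in mesenchymal-like and 2200 in alveolar type 2-like cells, so the class with the gene was the shallower. The leading classes of Celsr1, ciliated-like, lymphatic endothelial-like and alveolar type 2-like, had overlapping intervals and are not ranked.

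Celsr2 (ENSMUSG00000068740.13, mm10 chromosome 3, 108390851 to 108415552) was highest in the arterial-like and general capillary-like classes of blood endothelium. It had 23.6 CPM in endothelial-like cells and 2.25 in all others, a log2 ratio of 2.92. General capillary-like cells held 101 of its 247 UMIs, at 28.2 CPM and in 13.1% of cells (10.6% to 15.9%). Arterial-like cells had 37.5 CPM in 14.9% of 67 cells (7.40% to 25.7%), which overlaps. Ciliated-like cells came next, at 25.7 CPM from 4 UMIs in 24 cells (16.7%, 4.74% to 37.4%), and overlapped both. Aerocyte-like cells were lower, at 11.97 CPM and 4.62% of cells (2.13% to 8.58%), so the 4 genes that were highest there were not accompanied by a high Celsr2.

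In capillaries nearly all UMIs of the pair were of Celsr2. General capillary-like cells held 3 UMIs of Celsr1 and 101 of Celsr2, whereas alveolar type 2-like cells held 107 and 30, and lymphatic endothelial-like cells 9 and 0. In alveolar type 2-like cells Celsr2 still reached 12.2 CPM (7.16% of cells, 4.85% to 10.1%). Both were low in mesenchyme: Celsr2 stood at 1.57 CPM in mesenchymal-like cells, with its highest mesenchymal level, 6.31 CPM from 9 UMIs, in smooth muscle-like cells. Restricting the classes to cells of 1500 to 2500 detected genes gave the same order, with Celsr1 in 27.4% of 303 alveolar type 2-like and 0 of 354 general capillary-like cells, and Celsr2 in 5.61% and 13.6% of the same cells.

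**Figure D2:**
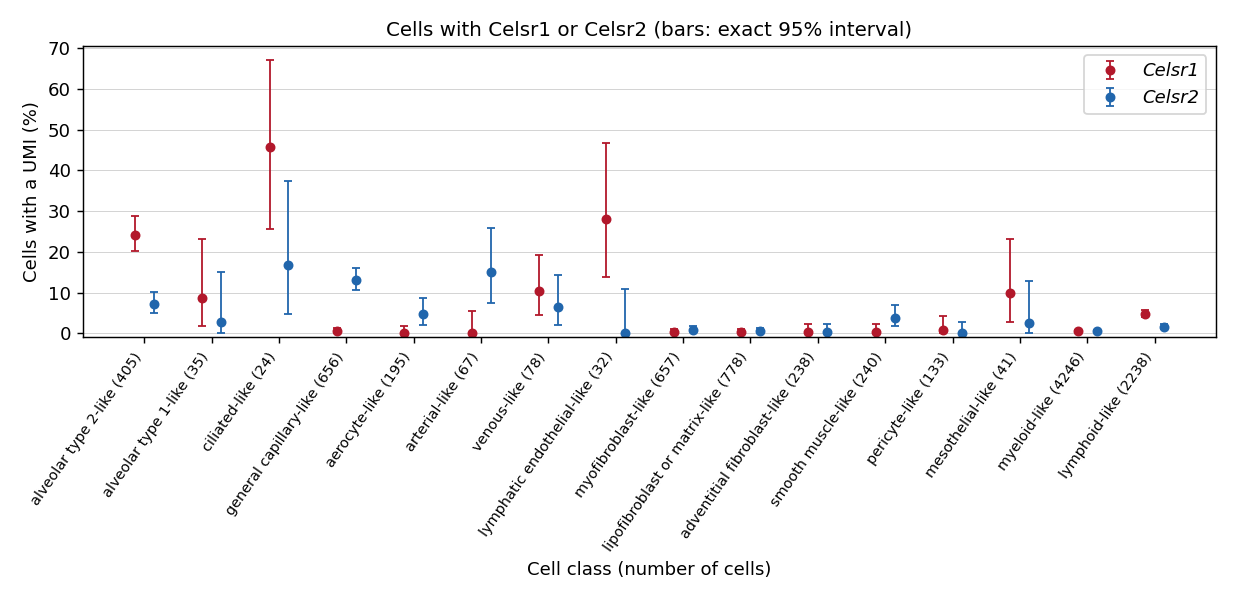
Percentage of cells with a UMI of Celsr1 (red) or Celsr2 (blue) in each class, with exact 95% intervals and the number of cells in parentheses. Celsr1 leads in alveolar type 2-like cells, at 24.2% against 7.16% for Celsr2, and Celsr2 leads in general capillary-like cells, at 13.1% against 0.457% for Celsr1.

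The Vangl genes encode 4-pass membrane proteins that recruit Prickle. Vangl1 (ENSMUSG00000027860.15, mm10 chromosome 3, 102153583 to 102204693) and Vangl2 (ENSMUSG00000026556.15, mm10 chromosome 1, 172000960 to 172028444) were both highest in aerocyte-like cells. Vangl1 reached 75.8 CPM there, in 28.2% of cells (22.0% to 35.1%), and Vangl2 58.9 CPM, in 23.6% (17.8% to 30.2%). In myeloid-like cells, at about the same detected genes, the shares were 0.236% and 1.08%. General capillary-like cells had 31.3 and 31.8 CPM of Vangl1 and Vangl2. The aerocyte-like share of Vangl1 overlapped that of arterial-like cells (17.9%, 9.61% to 29.2%) and lay above that of general capillary-like cells (14.9%, 12.3% to 17.9%). For Vangl2 the class next in level was the myofibroblast-like, at 38.3 CPM. Its share (21.2%, 18.1% to 24.5%) lay inside the aerocyte-like interval.

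The balance of the 2 Vangl genes differed among fibroblasts. Myofibroblast-like cells, which carry markers of the alveolar myofibroblast, held 153 UMIs of Vangl2 and 36 of Vangl1, a ratio of 4.25. Lipofibroblast or matrix-like cells held 112 and 150, a ratio of 0.747, and adventitial fibroblast-like cells 18 and 24, a ratio of 0.75. Pericyte-like cells, with 21 and 6 UMIs, and smooth muscle-like cells, with 38 and 22, stood on the side of the myofibroblast-like cells. These are ratios of depth-corrected 3′ UMIs, not scaled by transcript length.

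Between myofibroblast-like and lipofibroblast or matrix-like cells, Vangl1 levels differed more than Vangl2 levels. Vangl1 had 9.01 CPM in myofibroblast-like cells, in 5.48% of cells (3.87% to 7.51%), and 33.8 CPM in lipofibroblast or matrix-like cells, in 17.0% (14.4% to 19.8%). Vangl2 had 38.3 CPM in myofibroblast-like cells, in 21.2% (18.1% to 24.5%), and 25.2 CPM in lipofibroblast or matrix-like cells, in 13.5% (11.2% to 16.1%). Against adventitial fibroblast-like cells it was Vangl2 that differed more: Vangl1 had 9.01 CPM in myofibroblast-like and 16.5 CPM in adventitial fibroblast-like cells, and Vangl2 38.3 and 12.4 CPM. Of the myofibroblast-like and the lipofibroblast or matrix-like cells, median detected genes were 2807 in the first class and 2390 in the second. Among cells of 1500 to 2500 detected genes the Vangl1 shares were 3.51% (1.30% to 7.48%) of 171 myofibroblast-like and 14.7% (11.4% to 18.6%) of 401 lipofibroblast or matrix-like cells, still apart. The Vangl2 shares were then 14.04% (9.20% to 20.2%) and 12.2% (9.18% to 15.8%), which overlap. In cells of 2500 to 3500 detected genes they were 24.1% of 456 myofibroblast-like and 16.3% of 332 lipofibroblast or matrix-like cells, at 40.5 and 28.1 CPM. The Vangl1 shares in that range were 6.58% and 20.8%.

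**Figure D3:**
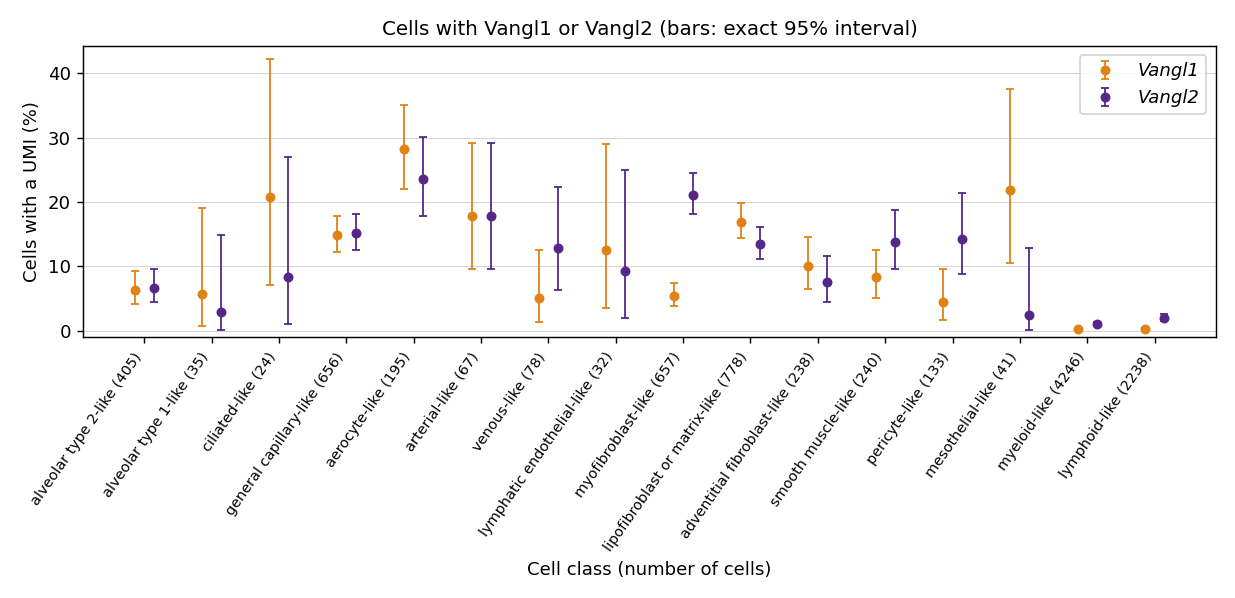
Percentage of cells with a UMI of Vangl1 (orange) or Vangl2 (purple) in each class, with exact 95% intervals and the number of cells in parentheses. Both are highest in aerocyte-like cells, at 28.2% and 23.6%, and they part in myofibroblast-like cells, at 5.48% and 21.2%.

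The Prickle proteins are cytoplasmic LIM-domain partners of Vangl. Prickle1 (ENSMUSG00000036158.12, mm10 chromosome 15, 93499114 to 93595891) had the highest level of any member in any class, 129 CPM in aerocyte-like cells. It was found in 41.5% of them (34.5% to 48.8%), against 18.9% (16.0% to 22.1%) of general capillary-like cells, the class next in level with 47.4 CPM. These intervals do not overlap. For this gene the top class was thus set apart from the next by more than counting error, which held for no other member.

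Prickle2 (ENSMUSG00000030020.13, mm10 chromosome 6, 92370908 to 92706155) was also highest in aerocyte-like cells, at 71.8 CPM (27.7%, 21.5% to 34.5%), 42.9 in arterial-like cells (19.4%, 10.8% to 30.9%) and 27.9 in general capillary-like cells (12.8%, 10.3% to 15.6%). Alveolar type 2-like cells had little of either gene, with 1 UMI of Prickle2 and 5 of Prickle1 in 405 cells. Alveolar type 1-like cells had 19.6 CPM of Prickle1, in 4 of 35 cells (11.4%, 3.203% to 26.7%), and none of Prickle2. Ciliated-like cells had 12.9 CPM of each, from 2 UMIs. In the mesenchyme both were highest in adventitial fibroblast-like cells, at 45.3 CPM for Prickle1 (22.7%, 17.5% to 28.5%) and 33.6 for Prickle2 (18.5%, 13.8% to 24.0%), while myofibroblast-like cells had 8.005 and 12.3 CPM. In cells of 1500 to 2500 detected genes the Prickle1 shares were 2.34% (0.641% to 5.88%) of 171 myofibroblast-like and 11.6% (5.14% to 21.6%) of 69 adventitial fibroblast-like cells, whose intervals overlap slightly. In cells of 2500 to 3500 they were 5.04% of 456 myofibroblast-like and 28.5% of 151 adventitial fibroblast-like cells, at 7.90 and 49.02 CPM.

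Prickle3 (ENSMUSG00000031145.15, mm10 chromosome X, 7657260 to 7668186) was spread more evenly than its paralogs. Its level ran between 4.05 CPM in pericyte-like and 32.2 CPM in arterial-like cells, apart from ciliated-like cells with 0 of 24 cells, a limit of 12.5% and an exact upper bound of 14.2%. The arterial-like share was 13.4% (6.33% to 24.0%) and the myeloid-like share 2.73% (2.26% to 3.27%). Its exons share 246 bases with Plp2 on the opposite strand.

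The members with cytoplasmic signalling or scaffold roles were spread over most classes or hardly detected. Dvl2 (ENSMUSG00000020888.16, mm10 chromosome 11, 70000595 to 70012301), a Dishevelled protein that works in both canonical and planar Wnt signalling, lay between 5.43 and 27.1 CPM in all classes but the ciliated-like, which had 0 of 24 cells. It was at 21.3 CPM in myofibroblast-like cells (12.5%, 10.1% to 15.3%) and at 7.23 CPM in lymphoid-like cells (3.62%, 2.88% to 4.48%). In cells of 1500 to 2500 detected genes the myofibroblast-like share was 4.68% (2.04% to 9.01%) and the lymphoid-like share 4.08% (3.07% to 5.32%), whose intervals overlap. In cells of 2500 to 3500 detected genes the shares were 15.4% of 456 myofibroblast-like and 9.04% of 166 lymphoid-like cells, at 24.7 and 15.3 CPM, so the 2 depth ranges differed in this. Of the exonic bases of Dvl2, 1151 (18.3%) lie on exons of Acadvl on the opposite strand. Whether reads were counted by strand is not stated in the labels.

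Scrib (ENSMUSG00000022568.17, mm10 chromosome 15, 76047158 to 76069784), a scaffold of basolateral polarity that also binds Vangl2, was the most widely found member, with UMIs in 9.42% of all kept cells. Its level ran between 7.75 CPM in mesothelial-like cells, from 2 UMIs, and 34.8 CPM in arterial-like cells, and was 16.2 CPM in myeloid-like cells. Every class held it, so no class gives a background for its shares. Ankrd6 (ENSMUSG00000040183.13, mm10 chromosome 4, 32804035 to 32950841), the vertebrate relative of the fly polarity protein Diego, was near the limit of detection, with 46 UMIs in 42 of the 10199 cells. Lymphoid-like cells held 12 UMIs in 2238 cells, myofibroblast-like cells 9 in 657 and myeloid-like cells 1 in 4246. Its highest level, 10.9 CPM in lymphatic endothelial-like cells, came from 2 UMIs.

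The lineages were next compared, with all kept cells outside the lineage on the other side. Immune-like cells were 6484 of the 10199 kept cells, so that side was mostly immune-like for each of the other lineages. The cut was a log2 ratio of 1 either way. Genes with at least 20 UMIs over all kept cells were counted, which all 10 members passed. In endothelial-like cells 5 of the 10 members were at 1 or more (Prickle1 at 2.96, Celsr2, Prickle2 at 2.51, Vangl1 at 2.49 and Vangl2 at 1.82), where 10.3% of the 15397 genes counted were, and none was at -1 or less, where 19.1% were. Celsr1, at -0.50, and Dvl2, at 0.02, were the members with no excess there. The median of the members was 1.36 and that of all genes -0.02. With immune-like and unnamed cells left out, all remaining cells, endothelial-like included, had 27.6 CPM of Vangl2 and 23.6 of Vangl1. Endothelial-like cells had 35.7 and 37.5 CPM. For Prickle1, Prickle2 and Celsr2 the remaining cells had 27.0, 20.8 and 9.01 CPM, and endothelial-like cells 56.6, 35.2 and 23.6. The Vangl2 excess was thus small among non-immune cells.

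In epithelial-like cells 2 members, Celsr1 and Celsr2 (1.44), were at 1 or more, beside 14.8% of all genes. Another 2, Prickle2 (-2.23) and Prickle1 (-1.38), were at -1 or less, beside 23.0% of all genes. Vangl1 and Vangl2 stood at 11.7 and 10.6 CPM in epithelial-like cells and 8.84 and 12.1 in all others. Over all cells with immune-like and unnamed cells left out they stood at 23.6 and 27.6 CPM. The members' median of 0.13, beside -0.21 for all genes, averages over these opposite directions.

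In mesenchymal-like cells 3 members were at 1 or more, Vangl2 (1.77), Prickle2 (1.60) and Vangl1 (1.55). That count was near the 21.3% of all genes, and Prickle1 lay just under the cut at 0.96. Celsr1 (-2.26) and Celsr2 (-1.24) were at -1 or less, beside 16.1%. The count at 1 or more was 5 with 0.1 CPM added in place of 1, and 1 with 10 CPM added. With immune-like and unnamed cells left out, all remaining cells together had 27.6 CPM of Vangl2, 20.8 of Prickle2 and 23.6 of Vangl1. Mesenchymal-like cells had 28.3, 18.7 and 19.7 CPM, so none of these genes stood out there among non-immune cells. In immune-like cells none was at 1 or more, beside 11.6%, and 5 were at -1 or less, beside 30.3%: Vangl1 (-3.94), Prickle2 (-3.36), Prickle1 (-3.07), Vangl2 (-2.81) and Celsr2 (-1.90). Celsr1 was not among them, at 4.01 CPM in immune-like and 7.39 CPM in all other cells.

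**Figure D4:**
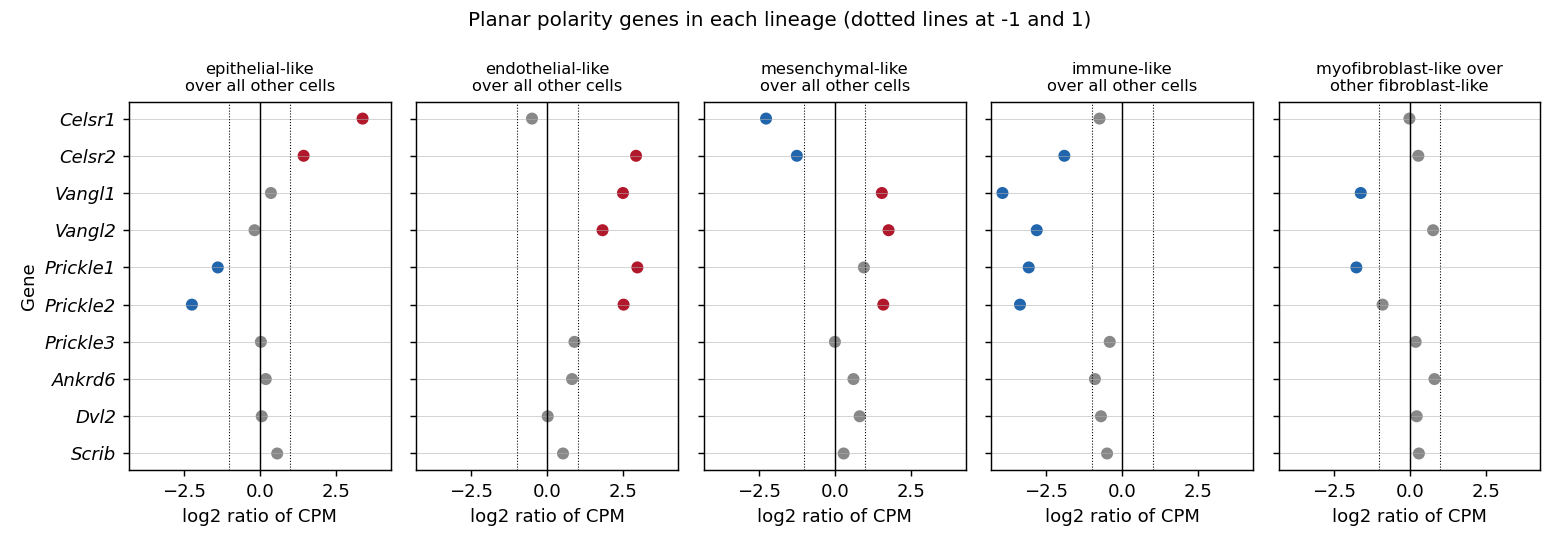
Log2 ratio of CPM of each gene (rows) in 5 comparisons (panels), the group named first over the group named second. Red points are at 1 or more, blue points at -1 or less and grey points between. The endothelial-like panel holds 5 red points and the immune-like panel 5 blue points.

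Among fibroblasts, myofibroblast-like cells were set against the other fibroblast-like cells, the lipofibroblast or matrix-like and adventitial fibroblast-like classes together. None of the members was at a log2 ratio of 1 or more, beside 7.32% of all genes, and 2 were at -1 or less, beside 7.67%. The minimum of 20 UMIs was summed over all kept cells, for members and all genes alike, not over the cells compared here. In these cells Celsr1 had 2 and 3 UMIs, Celsr2 5 and 5, and Ankrd6 9 and 5, too few to place them. Prickle1 had 8.005 CPM in myofibroblast-like cells and 29.3 in the others (-1.75), and Vangl1 9.01 and 29.5 (-1.61). Prickle2, at -0.89, and Vangl2, at 0.77, were inside the cut. Ankrd6 was at 0.82, from 9 UMIs in myofibroblast-like cells.

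In lymphoid-like cells, levels of Celsr1 and Vangl2 differed between T-like and B-like cells. Celsr1 was found in T-like cells at 12.4 CPM, in 6.45% of 1255 cells (5.16% to 7.96%), and in natural killer-like cells at 5.59 CPM, in 2.80% of 464 cells (1.5% to 4.74%). B-like cells held 1 UMI in 327 cells (0.306%, 0.00774% to 1.69%), and the myeloid-like share was 0.612% (0.400% to 0.896%). A cluster of 192 cells, named innate lymphoid-like by score, had Celsr1 in 5.73% of cells, and in the same cluster Prickle1 had 14.6 CPM, in 8.33% of cells. Its 10 leading genes held no marker of that list. They included the gamma-delta T cell receptor genes Trdc and Tcrg-C1 beside Areg and Il5, so the cluster may also hold T cells. Vangl2 had the other distribution. Its level was 22.7 CPM in B-like cells, in 7.95% of cells (5.26% to 11.4%), against 2.59 CPM and 1.35% of cells (0.791% to 2.16%) in T-like cells. B-like cells thus held 40 of the 60 lymphoid UMIs of Vangl2, and only 2 of the 6 of Vangl1. Median detected genes were 1655 in T-like, 1532 in natural killer-like and 1479 in B-like cells. Within 1500 to 2500 detected genes the Celsr1 shares were 6.81% of 808 T-like and 0.763% of 131 B-like cells, and the Vangl2 shares 4.58% of B-like (1.70% to 9.70%) and 1.49% of T-like cells (0.770% to 2.58%), the last pair overlapping.

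Clusters with cell cycle genes among their 10 leading genes, called cycling here, differed from the other clusters of the same class in Scrib. Its level was 42.1 CPM in the cycling cluster of myofibroblast-like cells and 21.5 in the other cluster. The values were 45.8 and 19.9 CPM in lipofibroblast or matrix-like cells, 41.9 and 21.7 in general capillary-like cells, and 42.2 and 18.1 in alveolar macrophage-like cells. In the same order the shares of cells were 24.1% and 11.3%, 26.7% and 10.4%, 23.2% and 10.6%, and 25.4% and 9.94%. Cycling clusters were also deeper: their median detected genes were 3035, 2973, 2637 and 3033, against 2769, 2327, 2060 and 2450 in the other clusters.

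The Scrib difference depended on which depth was compared. Among cells of 2500 to 3500 detected genes the levels were 46.2 and 19.4 CPM in myofibroblast-like, 53.5 and 22.0 in lipofibroblast or matrix-like, 47.6 and 22.7 in general capillary-like and 46.9 and 19.8 in alveolar macrophage-like cells, cycling cluster first. Among cells of 1500 to 2500 they were 29.9 and 28.7, 0 and 19.5, 29.3 and 24.8, and 15.3 and 16.6 CPM, from 24, 11, 52 and 48 cycling cells. The part of depth in the difference was not tested further. Vangl1 was higher in the cycling cluster of general capillary-like cells at either depth: 55.4 and 24.2 CPM over all cells, 51.3 and 26.7 at 1500 to 2500, and 59.4 and 22.7 at 2500 to 3500 detected genes. In myofibroblast-like cells Vangl1 had 14.4 CPM in the cycling and 7.58 in the other cluster over all cells, 0 and 7.48 at 1500 to 2500, and 18.5 and 7.95 at 2500 to 3500 detected genes, so its direction there depended on the depth compared. Vangl2 was not higher in the cycling cluster of general capillary-like cells, with 27.1 CPM in the cycling and 33.2 in the other cluster.

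**Figure D5:**
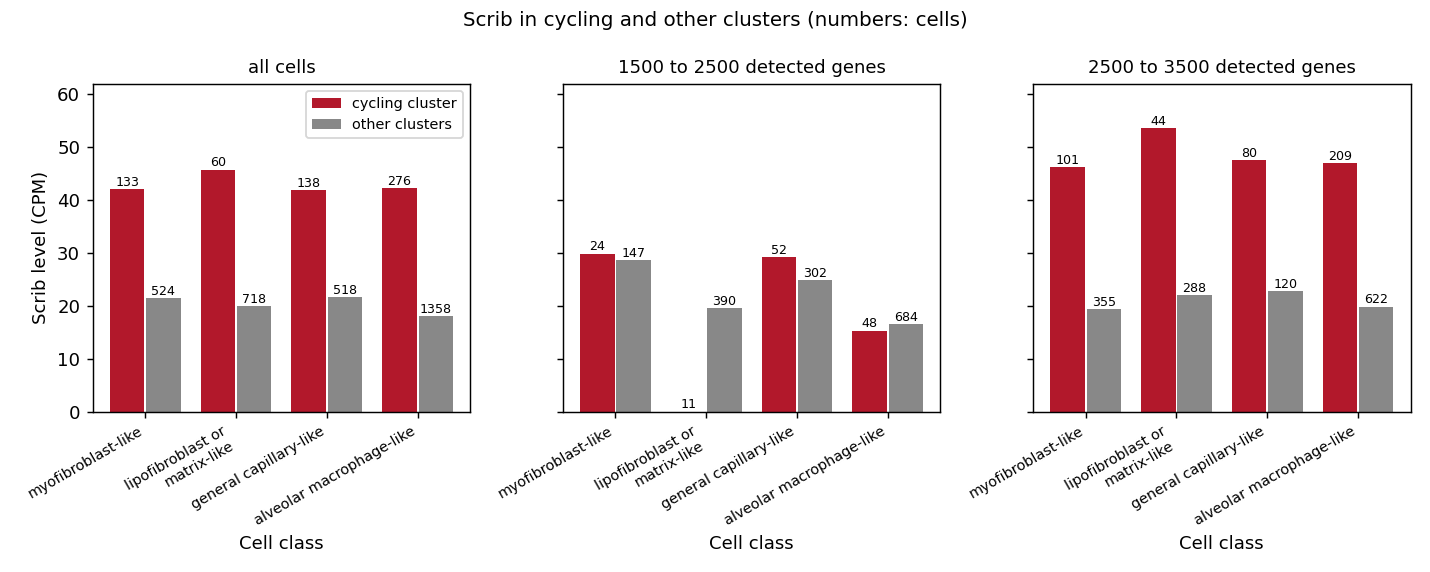
Level of Scrib in CPM (bars, axis from 0) in the cycling cluster (red) and the other clusters (grey) of 4 classes, over all cells and in cells of 2 ranges of detected genes. Numbers over the bars are cells. The red bars stand above the grey in all 4 classes over all cells and at 2500 to 3500 detected genes, and in 2 of 4 at 1500 to 2500, where the lipofibroblast or matrix-like red bar is 0.

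Over 35 clusters of at least 20 cells, the levels of Vangl1 and Prickle1 had a Pearson correlation of 0.84, Vangl1 and Vangl2 of 0.80, and Vangl1 and Prickle2 of 0.76, on the log2(CPM + 1) scale. Celsr1 and Prickle2 had -0.32, the lowest of all pairs. The clusters come from 1 library and differ in depth, so these values describe this library. Immune-like clusters were 18 of all 36, and in none of them did Vangl1 exceed 2.31 CPM. The correlations here and below thus include the difference between immune-like and other clusters. They were not computed with immune-like clusters left out. Among 11534 candidate genes, genes with a pattern close to Vangl1 were Pabpc4l (0.93), Rhbdf1 (0.91) and Fbxl7 (0.90), and to Vangl2 Zfp532 (0.89) and Tead2 (0.88). Prickle1 was closest to Sema6a (0.91), Smarca2 (0.88) and Sema3f (0.86), and Prickle2 to Nlgn2 (0.93), Gulp1 (0.89) and Phldb1 (0.87). Celsr1 was closest to Bex1 (0.78), Patj (0.77), an apical junction scaffold, and Krtcap3 (0.75). Celsr2 was closest to Pik3c2b (0.79), Ly6c1 (0.78) and Gdpd1 (0.77). The closest genes to Prickle3, Scrib and Dvl2 were Rbak (0.82), Ranbp3 (0.83) and Galnt4 (0.90).

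Of the Frizzled, Dishevelled and other partner genes, Fzd6, a core receptor, was at 40.2 CPM in endothelial-like cells and 2.77 in all others (log2 ratio 3.45), and so shared the lineage of Celsr2 and Prickle1. It also stood at 23.7 CPM in epithelial-like cells and 5.56 in all others (1.91). Ptk7, a polarity co-receptor, and Fzd3 were mesenchymal, with 108 CPM in mesenchymal-like and 7.02 in all other cells (3.77), and 28.8 and 2.73 CPM (2.997). Llgl2, a basolateral polarity gene, was epithelial, at 39.7 CPM in epithelial-like and 2.26 in all other cells (3.64). Of the 14 partner genes counted, those at 1 or more numbered 4 in endothelial-like, 2 in epithelial-like, 6 in mesenchymal-like and 1 in immune-like cells. The shares of all genes at 1 or more were 10.3%, 14.8%, 21.3% and 11.6% in that order, so the epithelial-like and immune-like counts were near them. Those at -1 or less numbered 2, 0, 2 and 9 in the same order, beside 19.1%, 23.0%, 16.1% and 30.3% of all genes. In myofibroblast-like against other fibroblast-like cells the counts were 1, Nos1ap at 1.22, and 2. Of the latter, Llgl2 was at -1.20, from low levels of 0.250 CPM in myofibroblast-like and 1.86 in other fibroblast-like cells. The shares of all genes there were 7.32% and 7.67%.

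The ligands and receptors of non-canonical Wnt signalling act upstream of the core proteins. They were higher in mesenchymal-like than in all other cells, which were mostly immune-like, and mostly low in endothelium. All 9 were at 1 or more in mesenchymal-like cells, beside 21.3% of all genes, with a median of 3.27 beside 0.23. In endothelial-like cells 7 of 9 were at -1 or less, beside 19.1%. Wnt5a, a ligand of Ror receptors, had 156 CPM in mesenchymal-like and 2.15 in all other cells (5.65). Wnt11 had 153 CPM in myofibroblast-like and 10.0 in other fibroblast-like cells (3.81), whereas Wnt5b had 1.75 and 14.6 (-2.50). In that comparison 4 of the 9 reached 1 or more, while 1 lay at -1 or less, beside 7.32% and 7.67% of all genes. In epithelial-like cells 4 were at 1 or more, beside 14.8% of all genes, with Fzd2 at 58.8 CPM against 20.3 in all other cells. There 2 were at -1 or less, which is near the 23.0% of all genes. In immune-like cells all 9 were at -1 or less, beside 30.3%.

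The Fat and Dachsous cadherins, a parallel polarity system, were likewise higher in mesenchymal-like than in all other cells. There 6 of 6 were at 1 or more, beside 21.3% of all genes. They were led by Fat3 (60.5 CPM against 0.536, 5.32). The other side was mostly immune-like, and neither this list nor the Wnt list was compared with immune-like cells left out. In immune-like cells 6 of 6 were at -1 or less, beside 30.3%. Dchs1 was also endothelial, at 55.7 CPM in endothelial-like and 11.9 in all other cells (2.13). Endothelial-like cells had 2 of 6 at 1 or more and 2 at -1 or less, beside 10.3% and 19.1% of all genes. Epithelial-like cells had 2 and 3, beside 14.8% and 23.0%. Myofibroblast-like against other fibroblast-like cells had 2 and 2, beside 7.32% and 7.67%. In that last comparison Fjx1, the mouse relative of the fly kinase Four-jointed, had 54.8 CPM in myofibroblast-like and 7.63 in the others (2.69), and Fat3 12.8 and 114 (-3.06).

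Of the 9 cytoskeletal effectors counted, 3 were at 1 or more in mesenchymal-like cells, beside 21.3% of all genes. Among them were the Dishevelled-binding formin Daam2 (34.6 CPM against 1.88, 3.63) and the small GTPase Rhou (42.3 against 5.99, 2.63). In myofibroblast-like against other fibroblast-like cells 2 were at 1 or more, beside 7.32% of all genes. They were the same Daam2 (62.04 and 10.3 CPM, 2.47) and Rhou (79.5 and 27.3, 1.51). Counts at 1 or more and at -1 or less were 1 and 2 in endothelial-like, 0 and 2 in epithelial-like, and 0 and 3 in immune-like cells. Beside these, the shares of all genes were 10.3% and 19.1%, 14.8% and 23.0%, and 11.6% and 30.3%, so most of these counts were near those of all genes. Of the 4 ciliary effectors counted, 2 were at 1 or more in mesenchymal-like and 1 in epithelial-like cells, beside 21.3% and 14.8% of all genes. At -1 or less were 1 in epithelial-like and 2 in immune-like cells, beside 23.0% and 30.3%. With 4 genes, the epithelial-like counts were near those shares. Fuz, needed for cilium formation, had 15.6 CPM in epithelial-like and 7.28 in all other cells (1.002).

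In the bulk PDGFRA+ cells the deposited TPM, which are scaled by gene length, ranked the members Dvl2 (42.0), Scrib (32.8), Prickle1 (17.0), Prickle2 (12.04), Vangl2 (11.1), Vangl1 (7.39), Prickle3 (6.08), Ankrd6 (2.13), Celsr1 (0.23) and Celsr2 (0.17). Dvl2 stood above 79.8% and Celsr2 above 13.9% of the listed genes. Both Celsr genes were thus the lowest members on this scale. In a bulk sample, fewer cells with a gene and less RNA per cell cannot be told apart. Markers of other cells were present, with Sftpc of alveolar type 2 cells at 211 TPM, Scgb1a1 of airway secretory cells at 242 TPM, 7 endothelial markers summing to 208 TPM and 4 erythroid markers to 27565 TPM, and their part in the members' values was not tested. The 8 myofibroblast markers summed to 6074 TPM, the 8 smooth muscle markers to 6371 TPM, the 7 adventitial fibroblast markers to 4457 TPM and the 8 ciliated markers to 449 TPM, of which Tppp3 gave 441.

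On the CPM scale the bulk sample had 90.4 CPM of Scrib (exact Poisson 95% interval 89.0 to 91.8), against 18.7 CPM in the whole single-cell library (log2 ratio 2.21). Prickle2 had 48.9 CPM (47.9 to 49.98) against 8.29 (2.43), Dvl2 61.9 against 11.8 (2.29), Ankrd6 4.84 against 0.810 (1.69), and Prickle1 35.5 against 11.3 (1.56). These 5 of 10 were at 1 or more, beside 27.6% of 13901 genes, and Celsr1 (1.04 against 5.28, -1.62) and Celsr2 (0.686 against 4.35, -1.67) at -1 or less, beside 23.3%. With the length-scaled TPM in place of CPM, 1 member was at 1 or more and 2 at -1 or less, so the count of higher members depends on the scale. Vangl1 (0.74), Vangl2 (0.65) and Prickle3 (-0.13) were inside the cut. The 2 samples differ in platform, 3′ UMIs against whole-transcript reads, as well as in cells and genotype, and these cannot be told apart.

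Partner lists in the bulk sample over the library had 8 of 14 at 1 or more and none at -1 or less, led by Ptk7 (527 against 28.5 CPM, 4.16). The non-canonical Wnt genes had 8 of 9, with Wnt11 at 251 against 14.2 CPM (4.05), and the Fat and Dachsous genes 4 of the 5 counted, with Dchs1 at 254 against 16.2 (3.88). All 4 ciliary effectors were at 1 or more, and 3 of the 9 cytoskeletal effectors, with 2 at -1 or less. The median of all genes in this comparison was 0.09. Of all genes counted here, 27.6% reached the upper cut and 23.3% the lower one. Both counts of the cytoskeletal effectors were near these shares.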

How the data were processed

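Peripheral lung at postnatal day 3 was measured in 2 samples, 1 per group. Per the submitters' processing notes, Cell Ranger 5.0 and Seurat 3.2.2 were used for the single-cell library. The notes name mm10 with DESeq2, featureCounts, HISAT2 and Trim Galore for the bulk library. The single-cell values deposited by the authors were read as a score, that is depth-corrected whole-number UMIs: cell totals spanned 1.79-fold, and 27.7% of values were 1 in the 1000 cells with fewest genes against 74.3% in the 1000 with most. How they were made is not stated, so single-cell levels carry no Poisson interval. The deposited bulk table gives expected counts and TPM by the authors, and 1 column of per-sample values, FPKM, was not used. Bulk depth was 171910584 reads, and CPM from its counts carry exact Poisson intervals.

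Cells under 500 detected genes or over 10% mitochondrial were left out, then predicted doublets (scanpy 1.11.5 Scrublet, expected share 5%), 461 of 10660 cells. Leiden clustering (leidenalg 0.10.2) at resolution 1, on 2000 variable genes without mitochondrial, ribosomal or listed genes, 30 components and 15 neighbours, gave 36 clusters. A cluster was named from its best-scoring marker list (mean centred log2 level of at least 1, with 10 CPM added). It was left unnamed where another lineage reached 0.5 of that score, or where its 10 leading genes held more markers of another type. The last rule did not hold for an immune-like cluster of 466 cells. That cluster was named neutrophil by score, with 0 markers of that type and 3 of its lineage among its 10 leading genes. The details of the naming, the calling of clusters as cycling, the T, B and macrophage subtypes and the paralog ratios were set after seeing the data. Genes with at least 20 UMIs over all kept cells were counted at a log2 ratio of 1 or -1, with 1 CPM added. The members, lists and markers were chosen with earlier results of these data known. Genes of other lists were named as the 2 with the largest absolute ratio among those with 100 or more UMIs, not all repeated in the text, and like genes as the 3 highest correlations among genes with 200 or more UMIs, of which 2 are given for Vangl2 and 1 for Prickle3, Scrib and Dvl2, and the others are not reported here. Ratios were tested on simulated data. Positions are from GENCODE M21 (mm10), promoters from RefSeq GRCm38.p6. Symbols were matched as written.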

Additional observations from a re-analysis of the deposited data

How the results depend on the processing

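With 1 sample per group no result has a replicate check. No paired analysis was possible because each group holds 1 sample. Adding 10 CPM left 1 member at 1 or more and 0 at -1 or less in epithelial-like cells, 1 and 0 in mesenchymal-like cells, and 0 at -1 or less in bulk over library. Adding 0.1 CPM gave 5 members at 1 or more in mesenchymal-like and 1 in myofibroblast-like cells. The stricter filter (under 1000 genes or over 5% mitochondrial left out) gave 1 at -1 or less in mesenchymal-like cells, 1 at 1 or more in myofibroblast-like cells, and an Ankrd6 share of 0 in pericyte-like cells, against 1.504%. Keeping doublets gave 1 at 1 or more in myofibroblast-like cells, and keeping every deposited cell 1 at -1 or less in endothelial-like cells. Deposited TPM gave 1 at 1 or more in bulk over library. At 1500 to 2500 detected genes the Dvl2 share in myofibroblast-like cells was 4.68%, and at 2500 to 3500, chosen after seeing the data, 15.4%, against 12.5% over all cells. The other 108 of 120 counts stayed within 1.5 times, of 204 shares of cells 179 stayed inside the interval reported and 25 did not, most of these at 1500 to 2500 detected genes, and of 500 member ratios 472 kept their side of the cut, 28 crossed it and 0 changed sign past it. Other resolutions and centring moved no count of members by over 1.5 times. The causes were not tested. Sparse detection limits Ankrd6 and the ciliated-like, alveolar type 1-like, lymphatic endothelial-like and mesothelial-like classes.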
